A study of Rattus norvegicus with 4 samples.

Results

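The fibroblast growth factor (FGF) genes Fgf1, Fgf2 and Fgf9, the FGF receptor genes Fgfr1, Fgfr2 and Fgfr3, and the MAP kinase phosphatase genes Dusp1, Dusp4, Dusp5 and Dusp6 were followed across neural stem cells of the adult rat and the neurons derived from them. A probe was taken for a gene when its accession belonged to that gene in the RefSeq table. Of these 10 genes, 9 had a named probe, with 10 probes in all, among 8921 genes named on the arrays. No accession on the arrays matched Fgfr2, so it has no value here, and Fgf2 had 2 probes. Of the 40758 probes kept, 29984 matched no gene in that table. A probe of Fgfr2, or further probes of the other genes, may be among them. The 4 groups were neurons derived from olfactory bulb stem cells, neurons derived from hippocampal stem cells, olfactory bulb stem cells and hippocampal stem cells, all from rats labelled fisher 344 and with no genetic change or drug named in the labels. Each group was 1 array that held total RNA mixed from 3 independent experiments, so there is no spread between cultures for any value.

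FGFs bind receptor tyrosine kinases together with heparan sulfate chains, and the receptors pass the signal through RAS, RAF and MEK to the kinase ERK. ERK activity in turn induces genes for Dusp phosphatases and Sprouty and Spred proteins, which switch the pathway off again, so these genes are often read as a record of the signal. In neural stem cells FGF2 is a mitogen, and it is a common addition to their culture medium. The media of these cultures are not given in the sources used here.

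Values below are levels, the log2 signal of a probe minus the 75th percentile of log2 signal on its array, or differences between 2 levels of the same probe. A level of 0 is therefore the 75th percentile of the array. Levels of different genes were not compared, apart from the marker lists below. The threshold for calling a gene higher or lower was 1 log2 unit, a 2-fold difference. Where the scanner software did not mark a spot as well above background, that side was put at the lowest level that counted as well above background on the array and the difference is given as "at least". The share of probes well above background was 74.0% for olfactory bulb neurons, 66.6% for hippocampal neurons, 63.8% for olfactory bulb stem cells and 60.2% for hippocampal stem cells. Both neuron arrays lay on 1 slide and both stem cell arrays on another, so cell state and slide cannot be told apart. Spots of the same probe differed with a median SD of 0.0605 to 0.0927 log2 units per array, which is noise within an array and not between cultures.

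The labels of the arrays were set against marker genes. All 7 fibroblast and pericyte markers with a probe were well above background on both neuron arrays, and 1 of 7, Col1a2, on the stem cell arrays. Their summed signal, each divided by the 75th percentile of its array, was 517.0 in olfactory bulb neurons and 381.0 in hippocampal neurons, against 0.129 in olfactory bulb stem cells and 0.111 in hippocampal stem cells. For 8 astrocyte markers the sums were 104.2 and 120.0 in neurons, against 31.9 and 41.9 in stem cells. For 9 neuron markers they were lower on the arrays labelled neurons, at 2.26 and 6.39, against 34.3 and 46.1 in stem cells. The neuron markers were mixed: 4 were lower in neurons in both sources, among them Mapt, a microtubule protein with the highest stem cell levels of the list (4.91 and 5.33), and Syt1, a synaptic vesicle calcium sensor that did not pass background on either of the neuron arrays. The stem cell sums of this list thus rest mainly on Mapt. Stmn2, a growth cone protein, and Snap25, a protein of synaptic vesicle fusion, were higher in neurons in both sources, by at least 5.01 and 5.83 and by 3.08 and 3.97. For 6 cell cycle genes the sums were 36.8 and 36.9 in neurons, against 224.2 and 279.3 in stem cells. For 8 neural stem cell markers they did not separate the states, at 239.3 and 213.2 in neurons, against 215.7 and 261.7 in stem cells. Of these 8, 2 were higher in neurons in both sources and 3 lower. For 7 oligodendrocyte lineage markers they were 82.9 and 48.7, against 205 and 308.8 in stem cells. Microglia and macrophage markers (6) gave 5.39 and 2.35, against 0.82 and 0.79. Endothelium markers (3) gave 6.51 and 4.27, against 0.25 and 0.32. The part of these cell types and of cell division in the values of the FGF genes was not tested, and in such bulk RNA more cells of a type and more RNA per cell cannot be told apart.

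The first comparison set neurons against the stem cells they came from. All 3 ligand genes and Fgfr1 were higher in neurons in both sources, Fgfr3 was lower in olfactory bulb neurons, and of the phosphatases Dusp5 was higher in both sources while Dusp1 and Dusp6 differed by less than 1 log2 unit. In olfactory bulb cells 6 of the 9 genes were higher, where 26.9% of all 7017 genes compared were higher, and 1 was lower, where 20% of all genes were lower (46.9% of all genes in either direction). In hippocampal cells 5 of 9 were higher, where 21.8% of 6654 genes were higher, and 0 were lower, where 26.8% of all genes were lower (48.6% in either direction). The median difference of the 9 genes was 1.52 in olfactory bulb cells and 2.11 in hippocampal cells, and the median of all genes was 0.08 and -0.32. The genes were chosen with earlier results of these arrays known, so these counts describe them and are no test of the group.

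**Figure D1:**
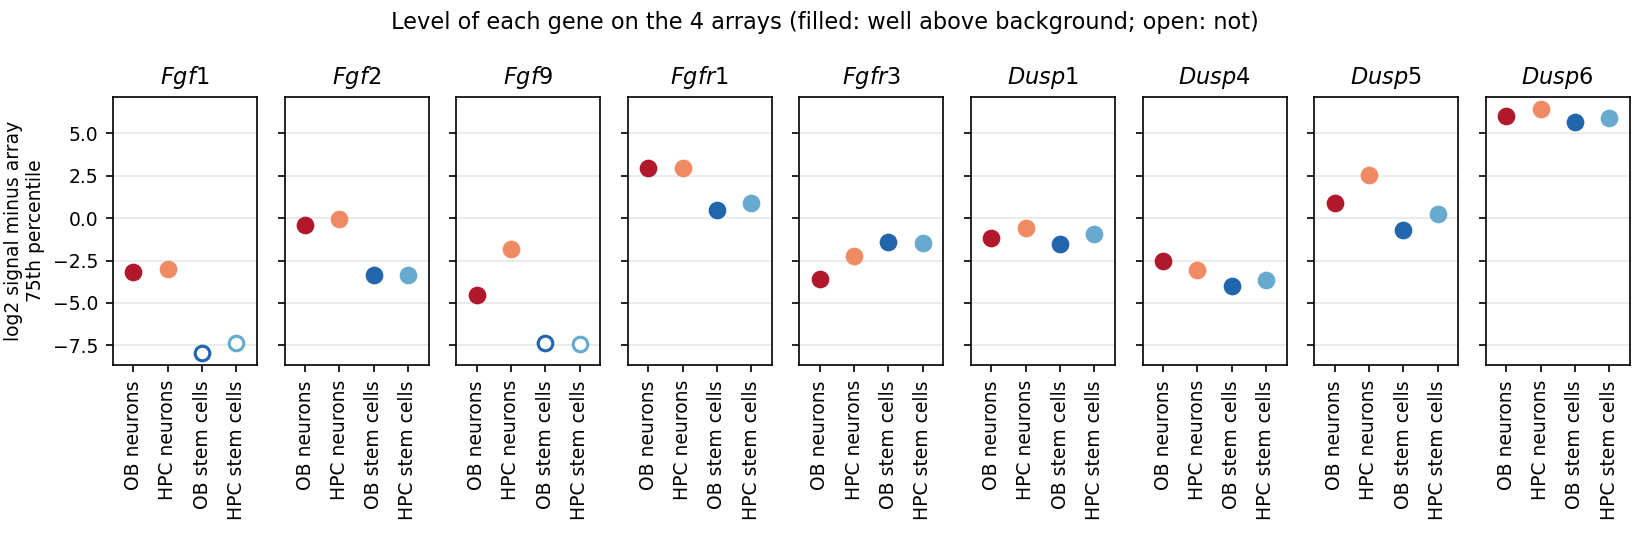
Level of each of the 9 genes (vertical axis, log2 signal minus the 75th percentile of the array) on the 4 arrays (OB, olfactory bulb; HPC, hippocampus), 1 point per array. Filled points were well above background and open points were not. Fgf1, Fgf2, Fgf9 and Fgfr1 lie higher on both neuron arrays than on both stem cell arrays, and Fgfr3 lies lower.

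All 3 ligands lay higher on both neuron arrays than on both stem cell arrays. Fgf2, a mitogen that lacks a classical secretion signal, had a level of -0.38 in olfactory bulb neurons and -0.07 in hippocampal neurons, against -3.36 in olfactory bulb stem cells and -3.36 in hippocampal stem cells. Both neuron arrays were high and both stem cell arrays low, with no overlap. The difference was 2.98 (7.89-fold) in olfactory bulb cells and 3.29 (9.81-fold) in hippocampal cells. This probe was printed 10 times, and 9 spots were kept on each array. The 9 spots ran from -0.50 to -0.33 in olfactory bulb neurons, from -0.17 to -0.0031 in hippocampal neurons, from -3.49 to -3.25 in olfactory bulb stem cells and from -3.49 to -3.23 in hippocampal stem cells. The SD among these spots was 0.051 and 0.047 in neurons and 0.080 and 0.088 in stem cells, so the separation was far larger than the noise of spots. The second probe of Fgf2 was dimmer, with levels of -4.51 and -4.40 in neurons, and was not well above background in either stem cell group. It gave bounds of at least 1.46 for olfactory bulb and at least 1.02 for hippocampal cells, in the same direction as the bright probe.

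Fgf1, which binds all FGF receptors, was well above background on the neuron arrays only. Its levels were -3.20 in olfactory bulb neurons and -3.01 in hippocampal neurons, where its signal was 9.28 and 6.40 times the lowest that counted as well above background. In stem cells its signals of 3.25 and 3.0 units were 0.249 and 0.263 times that lowest signal. Fgf1 was thus higher in neurons, with bounds of at least 2.77 (6.82-fold) for olfactory bulb and at least 2.40 (5.29-fold) for hippocampal cells. These bounds hold for the main processing only. With normexp background correction they came to 1.21 and 0.70, the second under the threshold of 1 log2 unit.

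Fgf9, first described as a growth factor for glia and a ligand of Fgfr3, was likewise well above background on the neuron arrays only. Its level was -4.56 in olfactory bulb neurons and -1.84 in hippocampal neurons, and its stem cell signals of 5.02 and 2.83 units were 0.384 and 0.247 times the lowest signal that counted. The bounds on its difference were at least 1.41 for olfactory bulb and at least 3.57 for hippocampal cells. In olfactory bulb cells the neuron signal was only 3.62 times the lowest signal that counted. The difference dropped under 1 log2 unit with 4 of 7 other processing choices. These were normexp background correction, quantile normalization, scaling to the median and scaling to the spike-ins. The authors' deposited table and the mean over probes repeat the main value for this gene, and dropping the filter only removes the bound. In hippocampal cells the difference was 1.40 or more under all 7.

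The receptors went in opposite directions. Fgfr1, the receptor through which FGF2 acts on neural stem cells, had a level of 2.98 in olfactory bulb neurons and 2.98 in hippocampal neurons, against 0.50 in olfactory bulb stem cells and 0.87 in hippocampal stem cells. It was higher by 2.48 (5.60-fold) and 2.11 (4.31-fold). With this scaling the neuron arrays differed from each other by less than the noise of spots, and with the spike-ins by -0.61 (olfactory bulb minus hippocampus). Fgfr3, which marks astrocytes and radial glia in brain, had a level of -3.62 in olfactory bulb neurons and -2.24 in hippocampal neurons, against -1.38 in olfactory bulb stem cells and -1.46 in hippocampal stem cells. The difference was -2.24 in olfactory bulb cells, 4.72-fold lower, and -0.78 in hippocampal cells, 1.72-fold lower and short of the threshold. With scaling to the median and with quantile normalization the hippocampal difference passed it, at -1.24 and -1.08. Most astrocyte markers were higher on the same neuron arrays (7 of 8 in olfactory bulb cells and 6 of 8 in hippocampal cells), the direction opposite to that of Fgfr3.

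Among Dusp1, Dusp4, Dusp5 and Dusp6 the separation was largest for Dusp5, a nuclear phosphatase that acts on ERK. Its level was 0.90 in olfactory bulb neurons and 2.57 in hippocampal neurons, against -0.68 in olfactory bulb stem cells and 0.22 in hippocampal stem cells. Both neuron arrays lay above both stem cell arrays, and hippocampal cells lay above olfactory bulb cells in each state. In stem cells this depended on the scaling: with the spike-ins olfactory bulb minus hippocampus came to -0.05. The difference was 1.58 (3.0-fold) in olfactory bulb cells and 2.35 (5.08-fold) in hippocampal cells, and the first of these came to 0.56 with scaling to the spike-ins. Dusp4, a nuclear phosphatase of several MAP kinases, had a level of -2.51 in olfactory bulb neurons and -3.06 in hippocampal neurons, against -4.03 and -3.62 in the stem cells of each source. It was higher by 1.52 in olfactory bulb cells, a call lost with 3 of 8 other processing choices, and differed by 0.56 in hippocampal cells.

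Dusp6 and Dusp1 differed little between states. Dusp6, a cytoplasmic phosphatase of ERK and a target of FGF signals in many embryonic tissues, had a level of 6.01 in olfactory bulb neurons and 6.46 in hippocampal neurons, against 5.65 in olfactory bulb stem cells and 5.90 in hippocampal stem cells. Its signals of 46702 and 70846 units in neurons and of 41054 and 29053 units in stem cells were at least 2543 times the lowest that counted as well above background, and no spot on these arrays was saturated. Dusp1, an immediate early gene whose product acts on p38 and JNK as well as ERK, had a level of -1.16 in olfactory bulb neurons and -0.60 in hippocampal neurons, against -1.50 in olfactory bulb stem cells and -0.94 in hippocampal stem cells. The differences were 0.36 and 0.56 for Dusp6 and 0.35 and 0.34 for Dusp1 in olfactory bulb and hippocampal cells. With quantile normalization Dusp6 passed the threshold in hippocampal cells, at 1.37. The signs turned under other scaling: with the spike-ins, Dusp6 differed by -0.67 and Dusp1 by -0.68 in olfactory bulb cells.

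The promoters of Dusp5, Dusp1, Dusp6 and Fgf2 are shown because Dusp5 and Fgf2 separated the states while Dusp1 and Dusp6 did not. The sequences are from RefSeq on GRCr8, 250 bases before to 50 after the start of the gene in that table, 5′ to 3′ on the strand of the gene, and genes with several transcripts may start elsewhere. Capitals mark matches on either strand to the AP-1 motif TGANTCA, the CRE motif TGACGTCA, the ETS motif CCGGAA, the E-box CACGTG, the TATA motif TATAAA and the CArG box, the site of serum response factor.
Dusp5 (chr1:262543524-262543823, plus strand): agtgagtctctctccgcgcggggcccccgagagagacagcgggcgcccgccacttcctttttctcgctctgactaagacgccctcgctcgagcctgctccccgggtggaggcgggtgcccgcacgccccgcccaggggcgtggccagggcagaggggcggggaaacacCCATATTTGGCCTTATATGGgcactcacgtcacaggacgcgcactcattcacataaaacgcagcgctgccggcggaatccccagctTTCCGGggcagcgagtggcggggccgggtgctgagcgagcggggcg
Dusp1 (chr10:17184603-17184902, plus strand): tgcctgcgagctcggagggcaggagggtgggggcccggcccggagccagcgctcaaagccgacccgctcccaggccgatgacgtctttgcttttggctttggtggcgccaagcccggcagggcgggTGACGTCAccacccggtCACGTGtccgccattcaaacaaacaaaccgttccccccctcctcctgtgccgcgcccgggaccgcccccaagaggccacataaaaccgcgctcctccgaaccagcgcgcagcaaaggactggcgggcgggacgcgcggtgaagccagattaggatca
Dusp6 (chr7:35979354-35979653, plus strand): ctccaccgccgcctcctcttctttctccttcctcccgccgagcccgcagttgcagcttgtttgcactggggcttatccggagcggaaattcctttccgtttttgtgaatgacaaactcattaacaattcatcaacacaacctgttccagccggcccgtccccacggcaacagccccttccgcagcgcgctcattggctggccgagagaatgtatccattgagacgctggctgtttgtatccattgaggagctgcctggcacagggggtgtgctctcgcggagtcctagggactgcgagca
Fgf2 (chr2:122164204-122164503, plus strand): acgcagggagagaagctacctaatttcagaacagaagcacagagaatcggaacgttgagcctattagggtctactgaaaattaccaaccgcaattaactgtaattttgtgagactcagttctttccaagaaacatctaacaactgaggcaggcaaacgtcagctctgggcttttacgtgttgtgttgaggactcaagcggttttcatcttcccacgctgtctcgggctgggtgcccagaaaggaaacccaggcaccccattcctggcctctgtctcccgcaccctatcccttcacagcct
The Dusp5 window held 2 CArG boxes side by side, with first bases at -82 and -72 from the start, and 1 ETS match just after the start. A CArG box was present in 1.64% of 33469 promoter windows of the same length, 2 or more in 7 windows (0.0209%), and the ETS motif in 15%. The Dusp1 window held 1 CRE, found in 1.83% of windows, and 1 E-box, found in 6.42%. The SP1 motif GGGCGG was searched too but not put in capitals, since 33.1% of windows hold it: it had 2 matches in the Dusp5 window, 3 in the Dusp1 window and none in the Dusp6 or Fgf2 windows. None of the 6 marked motifs was matched in the Dusp6 or Fgf2 windows, where AP-1 and TATA matches occur in 7.33% and 14.2% of all windows. The windows of Fgf1, Fgf9, Fgfr2 and Fgfr3 were searched too but are not shown. They also held none of the 6 marked motifs, though Fgf1 and Fgf9 were higher in neurons. A match describes the letters of a window and was not tested for binding.

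A limma fit over the 4 arrays, with cell state and source as terms and the sources standing in for replicates of a state, gave the only test. It covered 7108 genes, used measured levels in place of bounds, and adjusted p-values over all of them by the Benjamini-Hochberg method. For state it called 5 of the 9 genes higher in neurons, where 19.4% of all genes were called higher, and 0 lower, where 12.1% of all genes were called lower (31.6% in either direction). Fgf2 rose by 3.14 ± 0.43 (SE, limma adjusted p = 0.0024), Fgfr1 by 2.30 ± 0.43 (0.0085) and Dusp5 by 1.96 ± 0.45 (0.018), each higher in both sources. With 4 arrays such an SE leans largely on the spread that limma shares over all genes, and little on the gene's own spread. The calls of Fgf1 (limma adjusted p = 0.00049) and Fgf9 (0.0052) rest on stem cell readings at background, and both genes entered the fit only through the neuron arrays where they were high. Their size is therefore given only by the bounds above, which move with the processing, and the count of 5 is no support for the group. Among the 7 genes well above background on every array, the fit limited to such genes called Fgf2, Fgfr1 and Dusp5 higher and Fgfr3 lower. Its estimates were those of the main fit, -1.51 for Fgfr3. Over all genes its smallest limma adjusted p was 8.4e-149, against 4.5e-05 in the main fit. The limited fit thus rests almost wholly on the shared spread, and its call of Fgfr3 is no firmer than the main fit. For the other members the limma estimates were -1.51 ± 0.51 for Fgfr3 (adjusted p = 0.066), 1.04 ± 0.46 for Dusp4 (0.134), 0.46 ± 0.43 for Dusp6 (0.447) and 0.34 ± 0.42 for Dusp1 (0.570). Over 8 other processing choices Fgf2 stayed called in all, with limma adjusted p up to 0.023, Fgfr1 in 7 and Dusp5 in 6. Fgfr3 was called lower in 3, the limited fit among them. The authors' table repeats the main fit, and for genes with 1 probe the filter choices and the probe mean leave the estimate unchanged. Fgf1 stayed called in 6 of 7 and Fgf9 in 5 of 7. With normexp neither was called, each with an estimate of 0.97, and with quantile normalization Fgf9 was not called (adjusted p = 0.102). The fit tests 2 arrays against 2 arrays on different slides, so its calls also hold any difference between the slides.

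**Figure D2:**
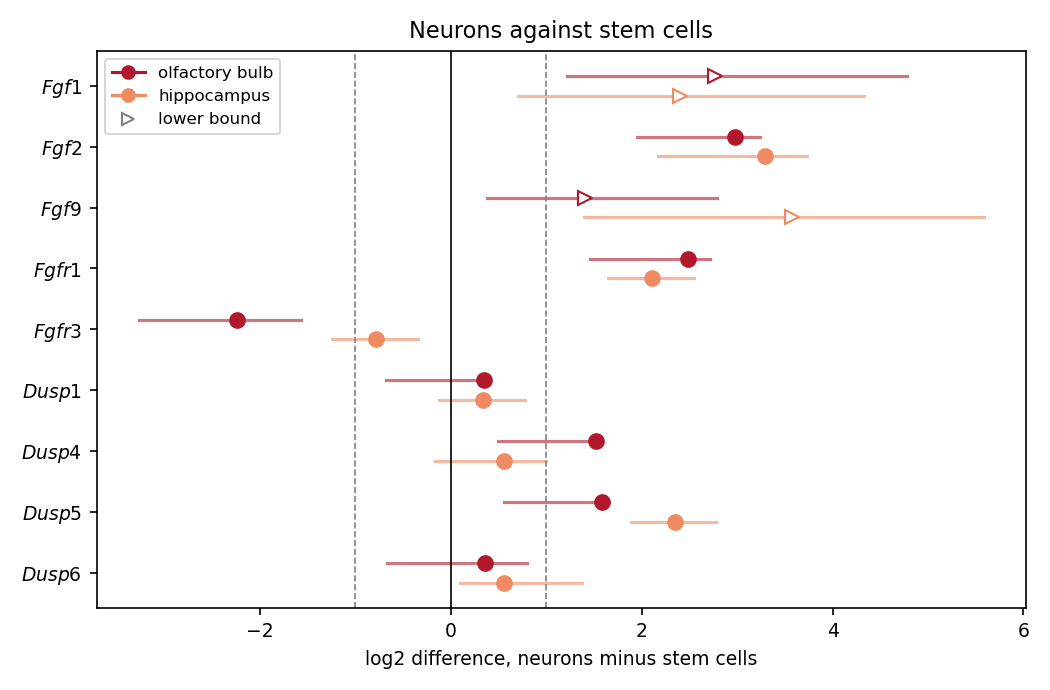
Log2 difference, neurons minus stem cells, for each gene in olfactory bulb cells (dark red, upper) and hippocampal cells (orange, lower). Circles are measured differences, open triangles are lower bounds, lines span all processing choices tried and dashed lines mark 1 log2 unit. Fgf2 and Fgfr1 stay above 1 in both sources along their whole lines, and Dusp1 and Dusp6 cross 0 in olfactory bulb cells.

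Other genes of the pathway were taken from 6 lists of 85 genes, of which 52 had a named probe. In olfactory bulb cells 13 of 45 compared were higher and 7 lower, against 26.9% and 20% of all genes. In hippocampal cells 14 of 42 were higher and 4 lower, against 21.8% and 26.8% of all genes. The medians were -0.03 and 0.02. In the limma fit 11 of 45 rose and 4 fell, close to the shares of all genes. Of 6 carriers of heparan sulfate with a probe, 3 were higher in neurons in both sources. The share of all genes called alike in both sources was not computed, here or for the lists below. Sdc4, a syndecan of focal adhesions, was higher in neurons by 5.67 in olfactory bulb cells and 6.06 in hippocampal cells, Sdc2 by at least 6.59 and 5.96, and the glypican gene Gpc4 by at least 6.37 and 5.31. The other carriers, Sdc1, Sdc3 and Gpc1, differed by -0.94, 1.33 and 1.16 in olfactory bulb cells and by -0.49, -0.81 and -0.95 in hippocampal cells. Of the 9 receptor and co-receptor genes with a probe, 7 could be compared, and none of these was lower in both sources. Fgfrl1, a receptor without a kinase domain, differed by -0.88 and -1.22.

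Of 17 other FGF ligand genes, 9 were well above background in olfactory bulb neurons, 8 in hippocampal neurons, 6 in olfactory bulb stem cells and 3 in hippocampal stem cells. Fgf13, an intracellular relative of the FGFs that binds sodium channels, was higher in neurons, with bounds of at least 4.05 for olfactory bulb and 5.02 for hippocampal cells. Fgf7, a ligand made by stromal cells, was higher by at least 3.31 and 1.42. Fgf8, a patterning signal of the embryonic brain, was the reverse: it was well above background in both stem cell groups and in neither neuron group, with a difference of -1.92 in olfactory bulb cells and -1.96 in hippocampal cells as bounds. In all, 3 of 12 compared were higher and 4 lower in olfactory bulb cells, against 26.9% and 20% of all genes. In hippocampal cells 3 of 9 were higher and 1 lower, against 21.8% and 26.8% of all genes.

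Between receptor and ERK, the adaptor gene Shc1 was higher in neurons by 1.97 in olfactory bulb cells and 1.71 in hippocampal cells, and it was the only one of 11 adaptor and kinase genes called in the same direction in both sources. Mapk3, an ERK gene, differed by -0.81 in olfactory bulb cells and by -0.95 in hippocampal cells. The feedback gene Spry2 differed by 0.40 and 0.03, and none of 5 feedback inhibitors was called in both sources. In olfactory bulb cells 0 of the 5 were higher and 0 lower, against 26.9% and 20% of all genes. In hippocampal cells 2 of the 5 were higher and 0 lower, against 21.8% and 26.8% of all genes. Of 7 ERK target genes, 3 were higher in both sources and 1 lower: Fosl1, an AP-1 subunit, by 5.48 and 3.28, Egr1, an immediate early factor, by 2.0 and 3.34, and Ier3 by 1.39 and 1.03, while Myc differed by -3.77 and -2.53. In each source taken alone 3 of the 7 were higher and 1 lower. Of all genes 26.9% were higher and 20% lower in olfactory bulb cells, and 21.8% and 26.8% in hippocampal cells. Of 3 further MAPK phosphatase genes, Dusp9 was higher by 2.27 and 1.72, and Dusp2, an immune cell phosphatase, differed by -3.65 as a bound in olfactory bulb cells and by -1.77 in hippocampal cells.

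**Figure D3:**
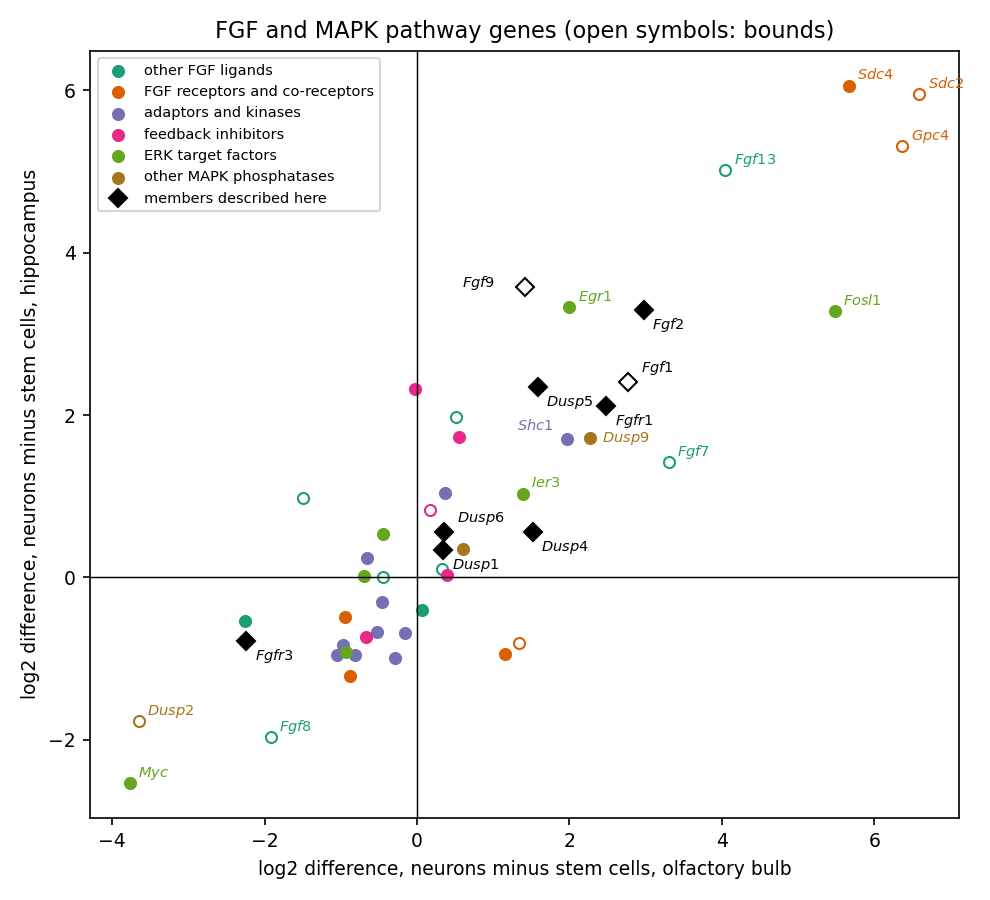
Log2 difference, neurons minus stem cells, in olfactory bulb cells (horizontal axis) and hippocampal cells (vertical axis) for the genes of the 6 pathway lists (coloured) and the 9 genes described first (black diamonds). Open symbols have a bound on at least 1 axis, and list genes called in the same direction in both sources are named. Sdc4, Sdc2 and Gpc4 lie at the upper right, while Myc and Dusp2 lie at the lower left.

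The second comparison set olfactory bulb cells against hippocampal cells of the same state, on the same slide. In neurons Fgf9, Fgfr3 and Dusp5 were lower in olfactory bulb cells, and in stem cells no gene of the group was called. In neurons 0 of 9 genes were higher, where 7.65% of 6995 genes were higher, and 3 were lower, where 8.01% of all genes were lower (15.7% in either direction). In stem cells 0 of 7 were higher and 0 lower, where 4.17% and 6.99% of 6024 genes were (11.2% in either direction). The medians of the group were -0.45 in neurons and -0.37 in stem cells, and those of all genes -0.01 and -0.43.

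In neurons Fgf9 differed by -2.72, 6.57-fold lower in olfactory bulb cells, Dusp5 by -1.67 (3.18-fold lower) and Fgfr3 by -1.38 (2.60-fold lower). Fgf9 and Dusp5 kept their call under every other processing choice that gave a value, and Fgfr3 came to -0.87 with normexp. Fgf1 differed by -0.19, Fgf2 by -0.31 and Fgfr1 by 0.0056. With this scaling the 3 other genes called higher in neurons in both sources thus lay close together in both kinds of neuron. With scaling to the spike-ins they differed by -0.80, -0.93 and -0.61. Dusp1, Dusp4 and Dusp6 differed by -0.56, 0.55 and -0.45. Other ligand genes also differed between the neurons: Fgf18 by -2.02 and Fgf13 by -1.53, while Fgf7 was higher in olfactory bulb neurons by 1.33. Fgf5 was well above background in olfactory bulb neurons alone, by at least 2.31 over hippocampal neurons. These 4 ligands, and Sdc1, Sdc3, Gpc1, Fgfrl1, Mapk3 and Spry2 above, were picked as examples after their values were seen.

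In stem cells Dusp5 had the widest difference, -0.90, followed by Dusp1 with -0.56 and Dusp4 with -0.41. Fgfr1 differed by -0.37, Dusp6 by -0.25, Fgfr3 by 0.08 and Fgf2 by 0.00051. Fgf1 and Fgf9 were not well above background in either kind of stem cell and gave no difference. The median of all genes here was -0.43 with scaling to the 75th percentile and 0.42 with scaling to the spike-ins, so the sign of values of this size depends on the scaling.

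The source term of the limma fit called 0 of the 9 genes and 0 of 7108 genes (smallest adjusted p 0.453), with 397 genes at an unadjusted p under 0.05. Dusp5 had the lowest unadjusted limma p of the group, 0.026, with an estimate of -1.29 ± 0.45 (SE) and a limma adjusted p of 0.845. It was lower in olfactory bulb cells in both states, but in stem cells by only -0.05 with scaling to the spike-ins. Fgf9 had an estimate of -1.32 ± 0.69 (limma adjusted p = 0.911). With so few arrays, 0 calls are no evidence of equal levels in the sources.

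**Figure D4:**
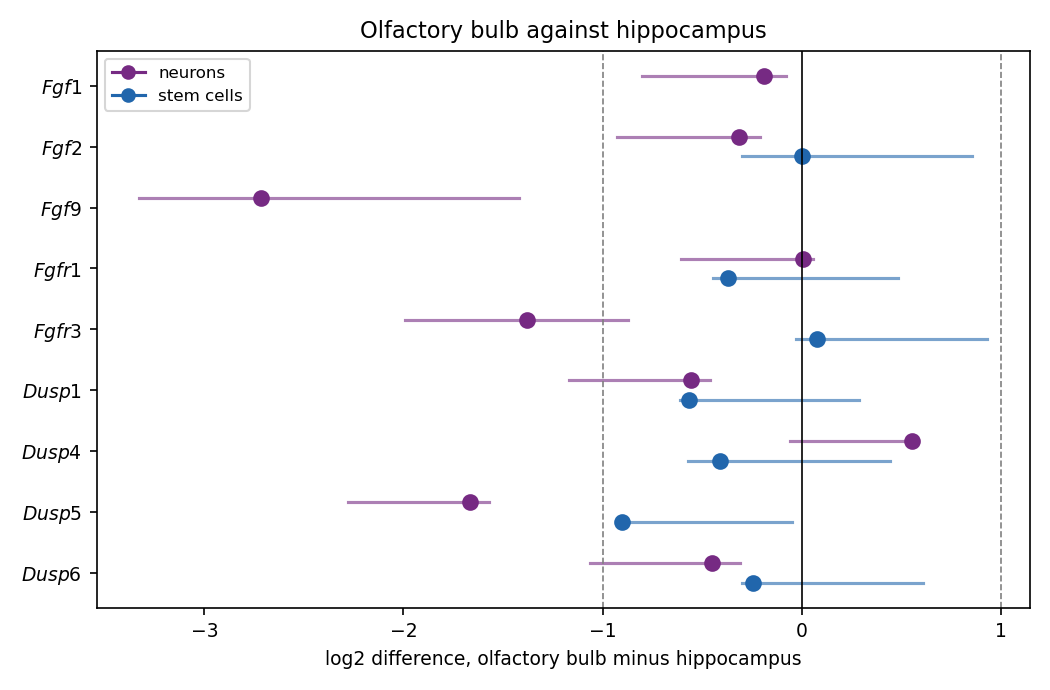
Log2 difference, olfactory bulb minus hippocampus, for each gene in neurons (purple, upper) and stem cells (blue, lower). Points are measured differences, lines span all processing choices tried and dashed lines mark 1 log2 unit. Fgf9, Fgfr3 and Dusp5 lie below -1 in neurons, and no stem cell point passes 1 log2 unit.

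The change with state also differed between the sources for some genes, a difference that could not be tested. The change in olfactory bulb cells minus that in hippocampal cells was -1.46 for Fgfr3, 0.96 for Dusp4 and -0.76 for Dusp5, against 0.38 for Fgfr1, -0.31 for Fgf2, -0.20 for Dusp6 and 0.0078 for Dusp1. Scaling each array by another constant shifts all of these by 1 common amount, so their order is kept while their signs may not be.

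The genes whose pattern over the 4 arrays lay closest to a member were sought among the 5490 genes that passed background on every array, by the Euclidean distance between levels centred on their own mean. Closest to Fgf2 were B3galnt1 (distance 0.089) and Entpd5 (0.179), and closest to Fgfr1 were Gramd2b (0.045) and Eml2 (0.051). Closest to Fgfr3 were Sms (0.052), a spermine synthase gene, and Cav1 (0.238), which encodes a caveolar coat protein. For Dusp5 the folate receptor gene Folr1 lay at a distance of 0.362. Each distance rests on 4 arrays and is given as a description.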

How the data were processed

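Total RNA of 4 rat cell groups was measured on 4 Agilent 1-colour (Cy3) arrays. The authors read the arrays with Agilent Feature Extraction 10.5.1.1, per the file headers. The deposited values are spot intensity after background subtraction and detrending within an array, with no step between arrays recorded. The probe design is on build rn4, per the same headers. The authors' deposited table of the series held the same intensity values (largest difference 0).

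Here the processed signal was put on the log2 scale, spots of a probe were averaged and the 75th percentile of each array was subtracted. Of 41012 probes, 254 with an outlier spot were left out, and 0 spots were saturated. Accessions without versions were matched to the RefSeq table of GRCr8, which named 10774 of 40758 probes and 8921 genes, 1595 of them with several probes, of which the brightest was used. Differences had no test with 1 array per group. The fit across all genes used limma 3.58.1 in R 4.3.3. The number of arrays limits the precision. Normexp used median spot signals and an offset of 50. The members, gene lists and motifs were chosen with earlier results of these data known. All members were named, together with list genes called alike in both comparisons of a kind and the 2 nearest patterns for each member that was measured on all arrays with a range of 2 log2 units or more. Some values that this rule covers are not reported here.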

Additional observations from a re-analysis of the deposited data

Results flagged for a closer look

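Between-source differences of 4 genes had opposite signs in neurons and stem cells, each on 1 array per group, so the differences were not tested. The olfactory bulb minus hippocampus value in neurons minus that in stem cells was -1.46 for Fgfr3 (-1.38 in neurons and 0.08 in stem cells), 0.96 for Dusp4 (0.55 and -0.41), 0.38 for Fgfr1 (0.0056 and -0.37) and -0.31 for Fgf2 (-0.31 and 0.00051). For Fgfr3, Fgfr1 and Fgf2 the smaller of these values lies within the noise of spots and has no sure sign. The signs of Dusp4, and of Fgfr1 in stem cells, depend on the scaling. With scaling to the spike-ins Dusp4 differed by -0.058 in neurons and 0.44 in stem cells, and Fgfr1 by 0.48 in stem cells.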

How the results depend on the processing

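Some of the 8 alternatives could not change a difference. The authors' table holds the same values. For a gene with 1 probe, well above background on all arrays, both filter choices and the probe mean also repeat the main difference. Staying called under these is no support. Of 15 differences called at 1 log2 unit, 10 stayed called under every alternative that gave a value, and none changed sign. Among the other 5, the difference with state in olfactory bulb cells dropped under the threshold for Fgf9 (0.38 to 0.87 under 4 alternatives), Dusp4 (0.49 to 0.99 under 3) and Dusp5 (0.56 with the spike-ins), that of Fgf1 in hippocampal cells came to 0.70 with normexp, and the source difference of Fgfr3 in neurons to -0.87 with normexp. The median of all genes moved with the scaling, from 0.08 to -0.41 (median) and -0.90 (spike-ins) for state in olfactory bulb cells, and from -0.32 to -0.78 and 0.12 in hippocampal cells. Higher genes made up 57.4% of called genes in olfactory bulb cells, 37.0% with median scaling and 25.4% with the spike-ins, and 44.9%, 28.8% and 66.5% in hippocampal cells. For source they made up 48.9% in neurons and 14.4% with the spike-ins, and 37.4% in stem cells and 93.9% with the spike-ins. With the spike-ins, 4 in place of 7 genes were called for state in olfactory bulb cells, 5 in place of 3 for source in neurons (Dusp1 at -1.17 and Dusp6 at -1.06 in addition) and 3 in place of 5 in the state term of the fit. With a filter for background on every array, 3 in place of 5 were called for state in hippocampal cells, because Fgf1 and Fgf9 drop out. The source term called 0 of the group under all 8 alternatives, though 69, 19 and 82 of all genes with normexp, the spike-ins and the stricter filter. The cause of these shifts was not tested. The fit already compares the states within source, since source is one of its terms. No paired analysis was possible because, by replicate number, each group has 1 array. Fgf1 and Fgf9 in stem cells and the dim Fgf2 probe lie at background, which leaves only bounds.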
